A study of Mus musculus with 36 samples.

Results

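The measurement described here is the part of the response to lipopolysaccharide (LPS) that differed between anti-HA and control IgG precipitates of the same kind of mouse brain. It was computed for every gene as an interaction, (LPS HA minus LPS IgG) minus (steady-state HA minus steady-state IgG), on the log2 scale, from raw counts. A positive value means that the HA over IgG ratio was higher after LPS than at steady state. Of 12403 genes listed in the deposited table, 9680 had enough counts to be tested, and these held 99.04% of the counts. The 20 libraries were 4 LPS HA, 4 LPS IgG, 6 steady-state HA and 6 steady-state IgG libraries, of 36 samples in the series. All 4 groups came from mice of the genotype CX3CR1-CCre+/-:Lyve1-NCre+/-:Ribo-tag+/-, in which complementary fragments of a split Cre recombinase are driven by the Cx3cr1 and Lyve1 genes and Cre activity switches on an HA-tagged ribosomal protein. LPS-treated mice received 2.5 mg per kg intraperitoneally and brains were taken 12 h later. The labels give the cell type as Lyve1+ macrophage, the tissue as brain, and no age or sex. A hemibrain was homogenised for the precipitation. HA and IgG precipitates were made from each brain, so the groups share animals, but which columns share a brain was not given, and p-values therefore measure the spread between libraries, which may be partly technical.

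LPS is a component of the outer membrane of Gram-negative bacteria that is sensed by Toll-like receptor 4. Injected into the body cavity, it evokes acute phase, cytokine and interferon programmes in endothelium, glia and border macrophages of the brain. An anti-HA precipitate holds RNA on tagged ribosomes of the Cre-active cells plus RNA that sticks to the beads, whereas an IgG precipitate holds the sticking RNA only, and that RNA comes from the whole homogenate and can itself respond to LPS. The interaction sets the response of the first against that of the second.

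Depth and marker levels bound what could be seen. Library totals ranged from 682445 to 1380452 counts in LPS HA, 362063 to 976737 in LPS IgG, 603565 to 1495301 in steady-state HA and 890338 to 1474373 in steady-state IgG. Within LPS HA, rank correlations over genes between libraries ran from 0.832 to 0.947, the lowest minimum of the 4 groups, and the LPS HA libraries 1-1 and 2-2 deviated from their group mean in opposite directions. Lyve1, the hyaluronan receptor that names the driver, had 0 to 2 counts per LPS HA library, 0 to 1 per LPS IgG library, 3 to 12 per steady-state HA library and 0 to 2 per steady-state IgG library, too few to be tested. Cx3cr1, the fractalkine receptor, had 2 to 8, 0 to 5, 5 to 18 and 2 to 12 counts per library in the same groups. Of 30 border macrophage markers, 21 were listed and 11 were tested. Pf4, a chemokine of border macrophages, had 20.7, 21.7, 41.3 and 46.9 counts-per-million (CPM, on library totals scaled by the trimmed mean of M-values) in the LPS HA libraries and 1.43, 0, 3.84 and 3.07 CPM in the LPS IgG libraries. At steady state the values were a lowest, median and highest value of 10.2, 23.4 and 31.5 CPM in HA and 0.678, 1.57 and 2.06 CPM in IgG. HA lay above IgG without overlap in both states. The Pf4 interaction was -0.22 ± 0.80 (log2 ± SE, adjusted p = 0.885 by edgeR's quasi-likelihood test with Benjamini-Hochberg adjustment over all tested genes, used for all adjusted p-values here). Over the 11 tested border macrophage markers the median HA over IgG log2 ratio was 1.08 after LPS and 1.30 at steady state, and none passed the interaction test at an adjusted p under 0.05. The nearest was Fcgrt, the neonatal Fc receptor that binds IgG, at 1.12 ± 0.34 (adjusted p = 0.0538), which passed without LPS HA 1-1 (1.11), LPS HA 2-1 (1.29), LPS IgG 1-2 (1.27) and the steady-state libraries HA 2-1 (1.27), HA 3-1 (1.19) and IgG 2-1 (1.18). In bulk precipitates such as these, fewer cells of a type and less RNA per cell cannot be told apart.

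The interaction passed the test in 313 of 9680 genes, 3.23% of those tested, with 159 higher (1.64%) and 154 lower (1.59%). At an unadjusted p under 0.05 there were 2001 genes. By comparison, the LPS response itself passed in 1690 genes in HA precipitates (17.5%) and in 1293 genes in IgG precipitates (13.4%). HA precipitates had 916 genes higher (9.46%) and 774 lower (8%) after LPS, and IgG precipitates had 670 higher (6.92%) and 623 lower (6.44%). Of the higher genes 315 were shared, 34.4% of the HA list and 47% of the IgG list. Of the lower genes 140 were shared, 18.1% of the HA list and 22.5% of the IgG list. The count of interactions was sensitive to single libraries: it was 890 without LPS HA 1-1, 127 without LPS HA 1-2, 187 without LPS HA 2-2, 177 without LPS IgG 1-1, 175 without LPS IgG 1-2, 190 without LPS IgG 2-1 and 207 without steady-state HA 1-2. It was 70 with counts summed over libraries that share the first number of their name, and whether such libraries are repeats of 1 precipitate is not given in the sources used here. Relative to sampling noise (chi-square over degrees of freedom), such pairs differed by 1.97 and 2.13 in LPS IgG (other pairs 3.05 to 3.81). In LPS HA the values were 5.72 and 5.97 (others 4.76 to 10.9). At steady state they were 1.76 to 3.87 in HA (others 2.87 to 6.50) and 2.37 to 4.44 in IgG (others 4.24 to 8.91). The origin of these differences was not tested. The HA response count was 1044 without LPS HA 1-2 and 1096 without LPS HA 2-2. Of 79 passing genes chosen by the naming rule or after their values were seen, 39 kept their call when each of the 20 libraries was left out in turn.

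Genes with an interaction mostly had LPS responses of opposite sign in HA and IgG, as point estimates. Over all 9680 tested genes, 4059 had opposite signs, and 20 passed both response tests in opposite directions. Of the 159 higher genes, 122 had a positive LPS response in HA and a negative one in IgG, with medians of 0.38 in HA and -0.53 in IgG. Their median HA over IgG log2 ratio was 0.12 after LPS and -0.85 at steady state. Of the 154 lower genes, 126 had a negative response in HA and a positive one in IgG, with medians of -0.70 in HA and 0.60 in IgG. Their median ratio was -0.69 after LPS and 0.62 at steady state. The interaction was at least 2-fold in size in 61 of the higher and 100 of the lower genes. The IgG response passed the test in the falling direction in 98 of the 159 higher genes, and the HA response passed in the rising direction in 64 of them. Among the 154 lower genes the HA response passed in the falling direction in 85 and the IgG response in the rising direction in 70. These components enter the interaction itself and describe it without adding evidence.

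**Figure D1:**
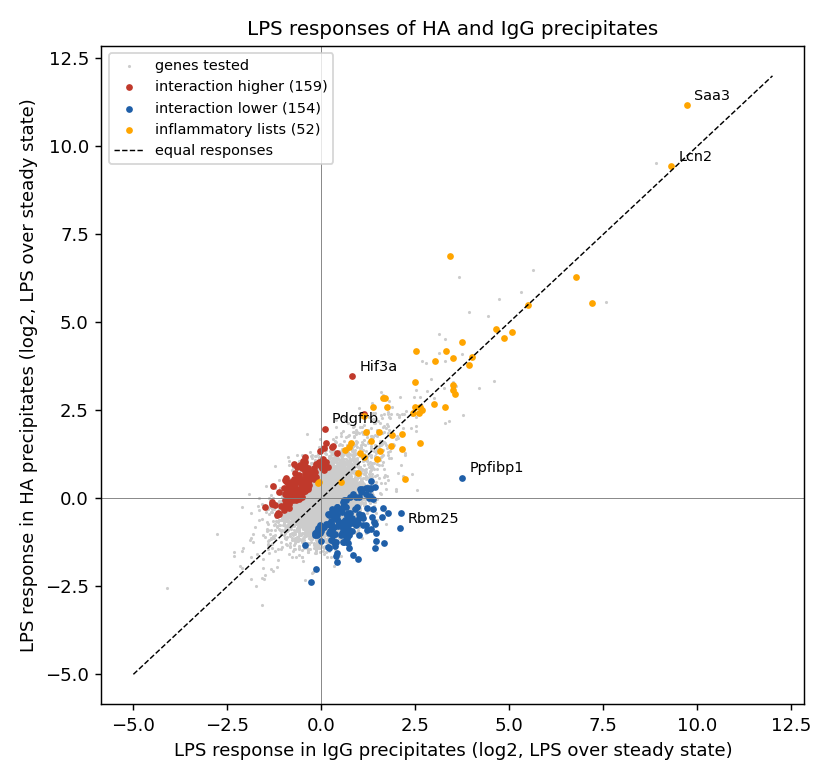
LPS response of each of the 9680 tested genes in IgG precipitates (x axis, log2 of LPS over steady state) and in HA precipitates (y axis, same scale), with genes that passed the interaction test higher (159, red) and lower (154, blue) and the 52 tested members of the inflammatory lists (orange). The inflammatory genes extend along the dashed line of equal responses up to Lcn2 and Saa3, while the red and blue genes lie beside it near the origin.

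The inflammatory programme showed no interaction that passed. The acute phase, NF-kB target and cytokine, and interferon-stimulated lists held 107 genes together, of which 79 were listed and 52 tested. The HA response passed in the rising direction in 49 of the 52 and the IgG response in 44. No member passed the interaction test, against 3.23% of all tested genes, so 0 of 52 does not set these genes apart. At an unadjusted p under 0.05 there were 9, against 2001 of the 9680 genes. In sign, 27 values were positive and 25 negative, with a median of 0.02 on the log2 scale against -0.01 over all genes. The median is 0.06 when Cxcl1 and Saa2, which had no count in 1 group, are set at a floor of 3 counts over that group. The median standard error of these members was 0.60, against 0.35 over all genes, so a 2-fold difference in response was within error for many of them. With single libraries left out, Lbp, which hands LPS to its receptor complex, passed without steady-state IgG 3-1 (1.35), and Stat2, a signal transducer of interferon receptors, passed without LPS HA 1-1 (1.004). By the acute phase list, all 12 tested genes rose in both precipitates. Of 17 neutrophil markers 13 were listed and 6 tested, and of these 3 rose in HA and 2 in IgG. Summed over the 13 listed markers, the level ranged from 939 to 1559 CPM in LPS HA and 312 to 520 in LPS IgG. At steady state the sum ranged from 43 to 421 CPM in HA and 4 to 25 in IgG. Most of it in the LPS libraries was Lcn2 (798 to 1262 CPM in LPS HA and 304 to 481 in LPS IgG). None of the 6 tested markers passed the interaction test. Their part in the inflammatory responses was not tested.

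Saa3, an acute phase serum amyloid A protein induced in macrophages and other cells, had 3456, 3721, 3646 and 4122 CPM in LPS HA and 339, 439, 566 and 787 CPM in LPS IgG. Steady-state libraries had 0, 1.38 and 2.5 CPM (lowest, median and highest) in HA and 0, 0 and 2.33 CPM in IgG. The LPS HA libraries stood above the LPS IgG libraries, and both stood above all steady-state libraries. The response was 11.17 ± 0.55 in HA and 9.71 ± 0.80 in IgG (log2 ± SE), and their difference was 1.45 ± 0.97 with an adjusted p of 0.508 by edgeR. Without steady-state IgG 2-2 that difference was 0.26 (adjusted p = 0.892). Lcn2, the iron-siderophore binding protein lipocalin 2, had 798, 991, 965 and 1262 CPM in LPS HA and 362, 304, 455 and 481 CPM in LPS IgG, with at most 3.34 CPM in steady-state HA and 1.55 CPM in steady-state IgG. The groups lay in the same order as for Saa3, and the interaction was 0.13 ± 0.98 (adjusted p = 0.986). For both genes few counts at steady state set the size of the error. Among interferon-stimulated genes, Irf7, a transcription factor of the interferon response, rose by 2.60 in HA and 3.30 in IgG, with an interaction of -0.70 ± 0.54 (adjusted p = 0.489). Among NF-kB targets, Socs3, a feedback inhibitor of cytokine signalling, rose by 2.51 in HA and 2.68 in IgG, with an interaction of -0.18 ± 0.45 (adjusted p = 0.861).

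Complement components had interaction values above 0 in 11 of 12 tested genes, with a median of 0.99, but none passed and 4 had an unadjusted p under 0.05. C4b, a component of the classical and lectin pathways, had 86.0, 239, 157 and 224 CPM in LPS HA and 130.3, 133, 114 and 148 CPM in LPS IgG. Without LPS it had 19.2, 26.6 and 55.8 CPM in HA and 49.6, 60.7 and 91.5 CPM in IgG. LPS libraries lay above steady-state libraries of the same antibody, and the ranges of HA and IgG overlapped in both states. Its interaction of 1.40 ± 0.41 had an adjusted p of 0.0575 by edgeR, with a response of 2.42 ± 0.29 in HA and 1.02 ± 0.28 in IgG. Without LPS HA 1-1 the C4b interaction was 1.63 (adjusted p = 0.00277), and it also passed when SS HA 2-1 (1.57), SS HA 2-2 (1.59) or SS IgG 3-2 (1.50) was left out, SS standing for steady state. C4b further passed with DESeq2 (adjusted p = 0.0116), limma-voom (0.0192), no scaling beyond library totals (0.0441) and with a replicate block of the library number (0.00117) or of its first part (0.0024). C3, the central component that the pathways cleave, had an interaction of 1.68 ± 0.77 (adjusted p = 0.17). Itgam, the alpha chain of complement receptor 3, had 1.34 ± 0.49 (adjusted p = 0.107). The C1q chains, made by microglia and macrophages, had 0.50 for C1qa, 0.16 for C1qb and 0.18 for C1qc, of which C1qa passed with the block of the first number (0.51, adjusted p = 0.0424). Of 10 tested reactive astrocyte genes, among them Lcn2 of the inflammatory lists, 9 rose in HA and 10 in IgG. None passed the interaction test, against 3.23% of all tested genes, so 0 of 10 does not set these genes apart. Vim, an intermediate filament gene, did pass without LPS HA 1-1 (-0.86). For Gfap, the astrocyte intermediate filament, the interaction was -0.21 ± 0.28 (adjusted p = 0.725).

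Cytosolic ribosomal protein genes held the most lower interactions of the gene lists examined. Of 80 genes listed 78 were tested, and 16 passed lower (20.5%) and 0 higher, against 1.59% lower over all genes. In all, 71 of the 78 values were negative, 41 had an unadjusted p under 0.05, and the median was -0.55 against -0.01 over all genes. In HA precipitates 27 of the 78 fell and 2 rose after LPS (37.2%, against 17.5% over all genes), with a median of -0.44. In IgG precipitates 0 fell and 8 rose (10.3%, against 13.4% over all genes), with a median of 0.16. Their median HA over IgG log2 ratio was 0.00 after LPS and 0.55 at steady state. Summed over the 80 listed genes, the level was 46082 to 53017 CPM in LPS HA, 48837 to 52368 in LPS IgG, 50960 to 82619 in steady-state HA and 44040 to 50259 in steady-state IgG. The steady-state HA libraries reached above the ranges of the other 3 groups. The count of 16 was 7 without LPS HA 1-2, 8 without LPS IgG 1-1 and 8 without LPS IgG 2-1, and 6 with counts summed over libraries that share the first number, and the median stayed between -0.58 and -0.45 under every setting run. Ribosomal protein genes have near-identical pseudogene copies in the genome, and how shared reads were counted was not given, so their single-gene values are uncertain in that respect.

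The genes that passed lower, most of them subunits of the large ribosomal particle, were Rpl27a, Rpl13a, Rpl17, Rpl7, Rplp2, Rpl3, Rpl12, Rps4x, Fau, Rpl15, Rps24, Rps10, Rps25, Rpl10a, Rpl36 and Rpl10. Rpl27a had 269, 157, 162 and 161 CPM in LPS HA and 293, 251, 292 and 230.4 CPM in LPS IgG. At steady state it had 253, 276 and 494 CPM in HA and 152, 192 and 224 CPM in IgG. Steady-state HA lay above steady-state IgG, LPS IgG lay above steady-state IgG, and the LPS HA libraries overlapped both LPS IgG and steady-state HA. The interaction was -1.28 ± 0.24 (adjusted p = 0.00287 by edgeR), made of -0.75 in HA and 0.54 in IgG. Rpl13a had 2590.1, 2361, 2214 and 2145 CPM in LPS HA and 3112, 3173, 2977 and 2724 CPM in LPS IgG. At steady state the values were 2849, 3801 and 4534 CPM in HA and 2077, 2564 and 3173 CPM in IgG. All LPS HA libraries lay below all LPS IgG and all steady-state HA libraries. The interaction was -0.95 ± 0.18 (adjusted p = 0.00295). Both genes, with Rpl17, Rpl7, Rplp2 and Rpl3, passed with every single library left out, and the other 10 failed to pass without at least 1 of them. With summed counts Rpl27a and Rpl7 passed, while Rpl13a (adjusted p = 0.0519), Rpl17 (0.0905), Rplp2 (0.0889) and Rpl3 (0.104) did not. The tagged protein itself, Rpl22, had an interaction of -0.60 ± 0.22 with an adjusted p of 0.117.

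Other genes of translation passed in both directions. Of 54 translation factors, a list chosen after values were seen, 5 passed lower (9.26%, against 1.59% over all genes) and 0 higher. The share in a list chosen in this way describes the list and is no test of it. Eef1a1, the elongation factor that brings aminoacyl-tRNA to the ribosome, had 343, 422, 341 and 349 CPM in LPS HA and 605, 505, 518 and 561 CPM in LPS IgG. Steady-state libraries had 341, 463 and 545 CPM in HA and 223, 306 and 372 CPM in IgG. LPS IgG lay above both LPS HA and steady-state IgG without overlap. The interaction was -1.21 ± 0.19 (adjusted p = 0.00116), with a response of -0.31 in HA and 0.90 in IgG. The other members that passed were Eef1b2 (-1.14), an exchange factor for that protein, Eif4a2 (-1.76), an RNA helicase of cap-dependent initiation, and Eif3e (-2.05) and Eif3m (-1.25), subunits of initiation factor 3. Eif3m did not pass when any 1 of 6 libraries was left out, LPS HA 1-2 (-1.08) among them, and the other 4 genes passed with every single library left out. Of 19 tested tRNA synthetases, also a list chosen after values were seen, 3 passed higher (15.8%, against 1.64% over all genes) and 0 lower. They were Gars at 1.09 ± 0.20 (adjusted p = 0.00257), Mars at 1.21 ± 0.26 (0.00897) and Wars at 0.70 ± 0.17 (0.0152). These charge glycine, methionine and tryptophan tRNAs. Gars had 144, 193, 151 and 217 CPM in LPS HA, 117, 138, 149 and 140.3 in LPS IgG, 114, 131 and 152 in steady-state HA and 175, 225 and 285 in steady-state IgG. Its LPS IgG libraries all lay below its steady-state IgG libraries.

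Messenger RNAs of ribosomal proteins and elongation factors are known for a run of pyrimidines at their 5′ end, the terminal oligopyrimidine tract, which begins with C at the first base and makes their translation depend on growth signalling. The window from 15 bases before to 15 bases from the annotated start is printed for the first 6 ribosomal protein genes by p that had an entry and may be shown here, and for the 5 genes of smallest interaction p, to show which carried such a run. Sequences are from RefSeq, build GRCm38.p6, which differs from the build of the counts, and are written 5′ to 3′ on the transcribed strand. Capitals mark a C followed by at least 5 C or T bases, with the C within 5 bases of the annotated first base, on that strand only.
Rpl27a (chr7:109519180-109519209, + strand): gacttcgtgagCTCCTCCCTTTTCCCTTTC
Rpl13a (chr7:45128731-45128760, - strand): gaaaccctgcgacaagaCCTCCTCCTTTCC
Rplp2 (chr7:141447636-141447665, + strand): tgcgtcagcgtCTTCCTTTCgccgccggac
Rpl12 (chr2:32961697-32961726, + strand): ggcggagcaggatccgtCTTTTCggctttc
Rps4x (chrX:102189377-102189406, - strand): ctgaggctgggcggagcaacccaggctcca
Fau (chr19:6057932-6057961, + strand): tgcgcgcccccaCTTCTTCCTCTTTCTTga
Eef1a1 (chr9:78481710-78481739, - strand): gctggctccgCCCTCTTCCCgagggtgggg
Plxnb1 (chr9:109095421-109095450, + strand): gccggccgacgcggctttgtCTCCTTTgtt
Dync1h1 (chr12:110601380-110601409, + strand): ccgcgagcgggcgccggtggctgcagccag
Calr (chr8:84846917-84846946, - strand): aggggcgggctcagcggctgtgtcaggttc
Dlgap3 (chr4:127172865-127172894, + strand): gcttcaaagtatcttgttaacaaagggaca

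Of the 6 ribosomal protein genes shown, all but Rps4x held a run, and of the other genes Eef1a1 and Plxnb1 held one, Plxnb1 with a positive interaction. Over all tested genes with an entry, 986 of 7430 held a run (13.3%), and 3352 of 32851 entries of the RefSeq list did (10.2%). The share was 16% of the genes with a higher interaction (20 of 125) and 24.1% of those with a lower one (28 of 116). Without ribosomal protein genes, the share of the lower genes was 19.2% (20 of 104). Among ribosomal protein genes a run was found in 8 of the 12 that passed and had an entry (66.7%) and in 17 of the 46 that did not pass (37%). These matches describe annotated starts, which need not be the starts used in brain, and a window without a run says only that these letters are not in it.

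**Figure D2:**
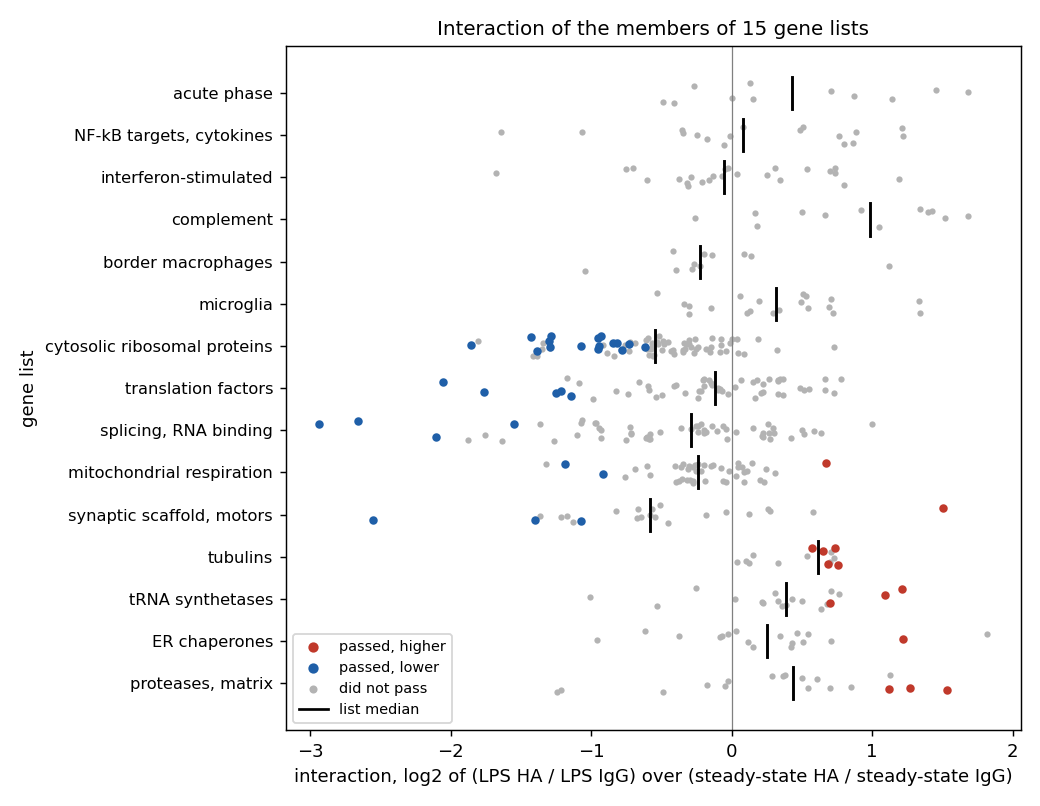
Interaction values (x axis, log2) of the tested members of 15 gene lists (y axis); each point is a gene, coloured where it passed the test higher (red) or lower (blue) and grey where it did not, and the black bar is the list median. Passing genes are absent from the acute phase, NF-kB, interferon-stimulated, complement and macrophage lists, ribosomal protein genes centre on -0.55 with 16 passing lower, and tubulins centre on 0.61 with 5 passing higher; Saa2, without a count in steady-state HA, is not drawn.

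Splicing and RNA-binding proteins, a list chosen after values were seen, held 4 of 57 genes that passed lower (7.02%, against 1.59% over all genes) and 0 higher. They were Rbm25, Srsf3, Tra2a and Hnrnpa3, and the list median was -0.29. Rbm25, a splicing regulator, had 9.92, 9.02, 3.62 and 7.33 CPM in LPS HA and 64.4, 105, 57.7 and 33.8 CPM in LPS IgG. Without LPS it had 5.69, 12.9 and 23.2 CPM in HA and 8.73, 13.03 and 26.5 CPM in IgG. LPS IgG stood above the other 3 groups without overlap. The interaction of -2.94 ± 0.52 (adjusted p = 0.00213) came with a response of 2.09 in IgG, which passed, and -0.85 in HA, which did not. Srsf3, a serine and arginine rich splicing factor, fell in HA by 2.39 and had a response of -0.28 in IgG. Its interaction was -2.11 ± 0.56 (adjusted p = 0.0323). Without LPS HA 1-2, Srsf3 (-1.73), Tra2a (-1.33) and Hnrnpa3 (-2.45) did not pass, and 7, 10 and 12 single libraries in all had this effect on them.

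Of 23 tested genes in the list of synaptic scaffolds and motors 3 passed lower, all scaffolds of the postsynaptic density, and 1 higher. Together these were 17.4%, against 3.23% over all genes, and the list median was -0.58. In HA precipitates 1 of the 23 rose and 3 fell after LPS (17.4%, against 17.5% over all genes). In IgG precipitates 5 rose and 1 fell (26.1%, against 13.4% over all genes). Dlgap3, a scaffold that links PSD-95 to Shank proteins, had 689, 550.4, 841 and 618 CPM in LPS HA and 1610.3, 2085, 1458 and 1252 CPM in LPS IgG. At steady state it had 485, 723 and 818 CPM in HA and 487, 647 and 731 CPM in IgG. LPS IgG stood apart above the other 3 groups, which overlapped. The response was -0.01 ± 0.16 in HA and 1.38 ± 0.16 in IgG, and the interaction was -1.40 ± 0.22 (adjusted p = 0.00137). Shank3, a scaffold of the same complex, had 144, 143, 225 and 163 CPM in LPS HA and 407, 414, 422 and 329 CPM in LPS IgG, with steady-state values between 97.8 and 201 CPM in both antibodies. Its interaction was -1.07 ± 0.24 (adjusted p = 0.0116). Shank1 had 3.31, 8.12, 7.97 and 1.47 CPM in LPS HA and 24.3, 24.9, 24.3 and 21.5 CPM in LPS IgG, and an interaction of -2.55 ± 0.60 (adjusted p = 0.0125). For Shank1 and Shank3 LPS IgG again lay above all other libraries, and the 3 scaffold genes passed with every single library left out. Shank1 and Shank3 each lost their call in 1 of the other alternatives run. Among neuronal markers 1 of 24 passed (4.17%, against 3.23% over all genes), Stmn2 lower, a regulator of microtubule disassembly in growing neurites. The median interaction of the 24 was -0.27, with 15 values negative and 9 positive, and 9 had an unadjusted p under 0.05. Their summed level was 14014 to 14570 CPM in LPS HA, 15336 to 16376 in LPS IgG, 14494 to 15402 in steady-state HA and 15335 to 17905 in steady-state IgG.

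The member of that list that passed higher was Dync1h1, the heavy chain of the dynein motor that carries cargo toward microtubule minus ends. It had 404, 619.9, 682 and 980.3 CPM in LPS HA and 766, 621, 923 and 816 CPM in LPS IgG. At steady state the values were 287, 354 and 387 CPM in HA and 1098, 1158 and 1321 CPM in IgG. LPS HA and LPS IgG overlapped, whereas steady-state HA lay below steady-state IgG by a wide gap. The response was 0.94 ± 0.16 in HA and -0.56 ± 0.16 in IgG, with an interaction of 1.50 ± 0.22 (adjusted p = 0.00116). Tubulins, the subunits of the track this motor walks on, had positive values in all 14 tested genes, with a median of 0.61. Of this list, chosen after values were seen, 0 passed lower and 5 passed higher (35.7%, against 1.64% over all genes). They were Tuba4a (0.74 ± 0.16), Tubb4b (0.76 ± 0.18), Tuba1a (0.69 ± 0.15), Tubb2a (0.65 ± 0.18) and Tuba1b (0.57 ± 0.17). In IgG precipitates 7 tubulins fell and 2 rose after LPS (64.3%, against 13.4% over all genes). In HA precipitates 2 fell and 2 rose (28.6%, against 17.5% over all genes). Tuba1a had 2031, 2541, 2075 and 2282 CPM in LPS HA and 2789.7, 2397, 2707 and 2532 CPM in LPS IgG. Steady-state libraries had 2578, 3035 and 3331 CPM in HA and 4944, 6029 and 6552 CPM in IgG. All steady-state IgG libraries lay above all others. Tubulin genes are close in sequence, and counts between them may be shared. Tubb2a did not pass when any 1 of 8 libraries was left out (values of 0.55 to 0.74 over all 20), and Tuba1b when any 1 of 13 was (0.54 to 0.65). The other 3 passed with every single library left out, but each lost its call in 1 of the other alternatives run.

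**Figure D3:**
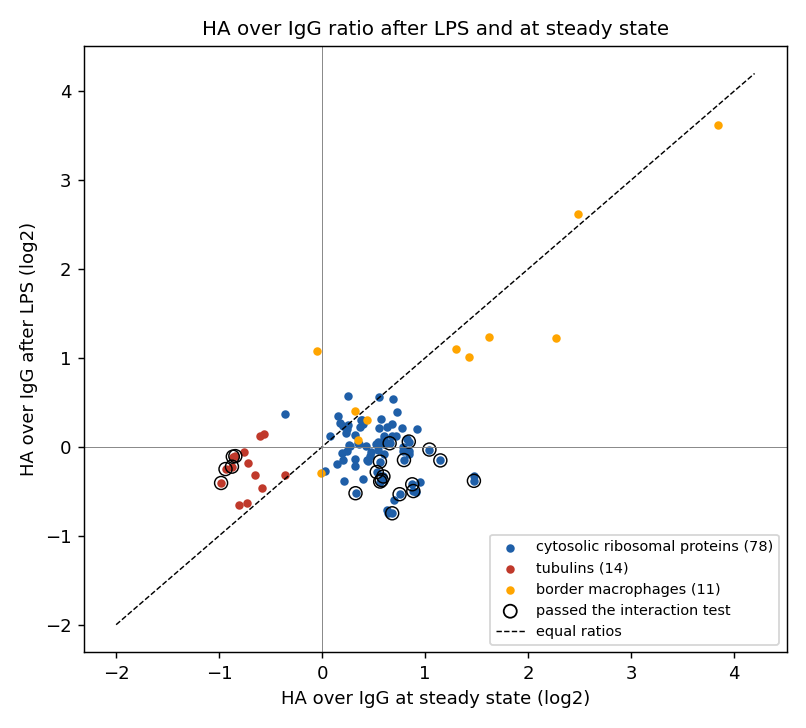
HA over IgG log2 ratio at steady state (x axis) and after LPS (y axis) of 78 cytosolic ribosomal protein genes, 14 tubulins and 11 border macrophage markers, with rings around genes that passed the interaction test and a dashed line of equal ratios. Ribosomal protein genes lie right of 0 at steady state and around 0 after LPS, and tubulins lie left of 0 at steady state and nearer to it after LPS. Border macrophage markers lie on both sides of the dashed line, with interactions from -1.05 to 1.12 that did not pass.

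Among genes of the secretory route and the lysosome, Calr and Ctsd fell in IgG precipitates while their HA response did not pass. As lists, endoplasmic reticulum chaperones had 0 genes rising and 3 falling in IgG (16.7%). Genes of transport between endoplasmic reticulum and Golgi had 2 rising and 2 falling (13.8%). Over all genes the IgG response passed in 13.4%. Calr, the calcium-binding chaperone calreticulin of the endoplasmic reticulum, had 269, 289.6, 249.9 and 287 CPM in LPS HA and 209, 177, 196 and 235 CPM in LPS IgG. Without LPS it had 223, 281 and 389 CPM in HA and 414, 546 and 613 CPM in IgG. HA libraries of the 2 states overlapped, whereas LPS IgG lay below steady-state IgG without overlap. The response was -0.09 ± 0.14 in HA and -1.31 ± 0.14 in IgG, and the interaction was 1.22 ± 0.20 (adjusted p = 0.00116). Calr was 1 of 18 tested endoplasmic reticulum chaperones (5.56%, against 3.23% over all genes), and the other 17 did not pass. In a list of 29 genes of transport between endoplasmic reticulum and Golgi, chosen after values were seen, 3 passed higher and 2 lower. Together these were 17.2% of the list, against 3.23% over all genes. The higher ones were Mia3 (1.29 ± 0.28), which helps load collagen at exit sites, and the vesicle coat subunits Sec31a (0.94 ± 0.21) and Sec24c (1.12 ± 0.26). The lower ones were the cargo receptors Tmed2 (-1.68 ± 0.38) and Tmed7 (-1.54 ± 0.44), of which Tmed7 did not pass when any 1 of 14 libraries was left out, LPS HA 1-2 (-1.29) among them. Ctsd, a lysosomal aspartic protease that is also counted among disease-associated microglia genes, had 536, 625, 495 and 759 CPM in LPS HA and 372, 472, 368 and 440.2 CPM in LPS IgG. At steady state it had 499, 531 and 601 CPM in HA and 646, 701 and 833 CPM in IgG. LPS HA lay above LPS IgG, and steady-state HA lay below steady-state IgG, so the order of the antibodies was turned round between the states. Its interaction was 0.91 ± 0.17 (adjusted p = 0.00304). Fth1, the heavy chain of the iron store ferritin, had the opposite sign, -0.89 ± 0.17 (adjusted p = 0.00287), with 3799, 3603, 4462 and 3518 CPM in LPS HA against 5601, 4880.4, 6156 and 5476 CPM in LPS IgG.

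Vessel and matrix genes held several higher interactions. Pdgfrb, the platelet-derived growth factor receptor of pericytes, had 21.5, 31.6, 22.5 and 32.2 CPM in LPS HA and 10.02, 2.76, 15.4 and 30.7 CPM in LPS IgG. At steady state the values were 2.28, 7.35 and 8.77 CPM in HA and 9.02, 15.5 and 22.4 CPM in IgG. LPS HA lay above steady-state HA, and the IgG groups overlapped. The response was 1.98 ± 0.37 in HA and 0.09 ± 0.35 in IgG, and the interaction was 1.89 ± 0.51 (adjusted p = 0.0278). It was the only one of 6 tested mural cell markers that passed, and it did not pass without LPS HA 1-2 (1.83), LPS HA 2-2 (1.81), LPS IgG 1-1 (1.71), LPS IgG 1-2 (1.68) or LPS IgG 2-1 (1.87). Mfsd2a, the lipid transporter of the blood-brain barrier, had 66.9, 91.1, 78.2 and 77.7 CPM in LPS HA and 41.5, 33.1, 35.9 and 56.3 CPM in LPS IgG. Steady-state libraries had 20.004, 24.1 and 37.5 CPM in HA and 21.4, 40.6 and 63.1 CPM in IgG. LPS HA lay above the LPS IgG and the steady-state HA libraries. The interaction was 1.46 ± 0.33 (adjusted p = 0.0116), and it passed with every single library left out. None of 13 tested endothelial markers passed, and their median was 0.46. Of 18 tested matrix and protease genes 3 passed higher (16.7%, against 1.64% over all genes) and 0 lower. They were Lamc1 at 1.54, Col4a2 at 1.27 and Lamb2 at 1.12, which encode laminin and collagen IV chains of basement membranes. Lamc1 did not pass when any 1 of 10 libraries was left out (values of 1.39 to 1.76), Col4a2 when any 1 of 15 was (1.08 to 1.50), and Lamb2 without LPS HA 1-2 (1.10). Col4a1, the neighbour and partner chain of Col4a2, had an interaction of the opposite sign, -1.21 ± 0.40 with an adjusted p of 0.0818, as it rose by 2.19 in HA and 3.40 in IgG. It passed lower without LPS HA 2-2 (-1.47) or SS IgG 3-2 (-1.39).

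**Figure D4:**
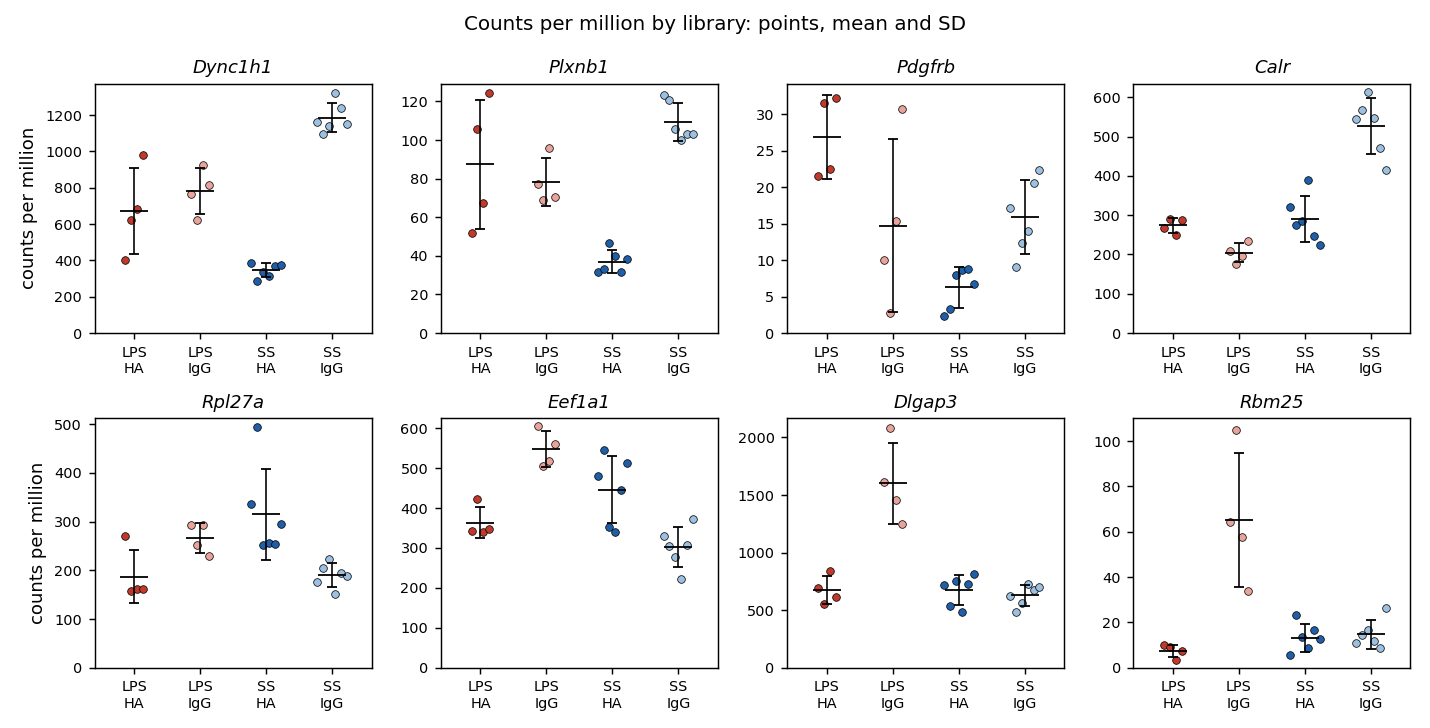
CPM (y axes, starting at 0) of 8 genes in each library of the groups LPS HA, LPS IgG, steady-state (SS) HA and SS IgG; points are libraries and bars the mean and SD (n = 4, 4, 6 and 6). Steady-state IgG stands high for Dync1h1, Plxnb1 and Calr, and LPS IgG stands apart above the other groups for Dlgap3 and Rbm25.

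By the size of the interaction, the 15 leading higher genes of 60 with at least 10 counts in their highest group and a 2-fold value were Hif3a, Pdgfrb, Abcc8, Txnrd2, Plxnb1, Entpd3, Lamc1, Lrrc42, Dync1h1, Slc7a10, Man2c1, Mfsd2a, Serhl, Rtn4ip1 and Igf2r. Hif3a, a subunit of hypoxia-inducible transcription factors, had 10.7, 46.0, 33.3 and 35.2 CPM in LPS HA and 14.3, 2.76, 14.1 and 16.4 CPM in LPS IgG. Without LPS it had 0, 3.32 and 3.51 CPM in HA and 6.2, 7.16 and 10.3 CPM in IgG. LPS HA lay above all steady-state HA libraries. The response was 3.47 ± 0.47 in HA, which passed, and 0.81 ± 0.40 in IgG, which did not, and the interaction was 2.66 ± 0.62 (adjusted p = 0.00973). Plxnb1, the plexin that receives semaphorin 4D, had 52.1, 106, 67.4 and 125 CPM in LPS HA and 77.3, 69.0, 96.1 and 70.6 CPM in LPS IgG. At steady state it had 31.6, 35.7 and 46.8 CPM in HA and 100.04, 104 and 123 CPM in IgG. LPS HA and LPS IgG overlapped and the steady-state groups did not. The interaction was 1.61 ± 0.27 (adjusted p = 0.0015). Abcc8, the sulfonylurea receptor of ATP-sensitive potassium channels, followed at 1.69 ± 0.38 and Txnrd2, the mitochondrial thioredoxin reductase, at 1.65 ± 0.35. Slc7a10, an amino acid transporter of astrocytes, had 1.47 ± 0.32, and Man2c1, a cytosolic mannosidase, had 1.46 ± 0.32. Igf2r, the mannose 6-phosphate receptor, had 1.40 ± 0.39, with 60.1 CPM in LPS HA 2-2 and 20.3 to 25.6 CPM in the other LPS HA libraries, and without LPS HA 2-2 it was 1.02 with an adjusted p of 0.109. Lrrc42 did not pass without LPS IgG 1-1 (1.32), and Entpd3, Serhl and Rtn4ip1 did not pass when any 1 of 12, 4 and 13 libraries was left out, with values between 1.13 and 1.89.

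The 15 leading lower genes, of 94, included Ppfibp1, Rbm25, Hnrnpa3, Shank1, Rpl14-ps1, Tmem263, Ccpg1os, Mzf1, Ppig, Ppp1cb, Srsf3, Utrn, Bclaf1 and Eif3e. Ppfibp1, the scaffold protein liprin beta 1, had 14.9, 4.51, 39.1 and 36.6 CPM in LPS HA and 90.2, 108, 475 and 288 CPM in LPS IgG, with steady-state values of 11.4, 16.3 and 20.04 CPM in HA and 14.7, 16.9 and 27.1 CPM in IgG. LPS IgG stood above all other libraries but varied by several fold within itself. Its interaction was -3.16 ± 0.75 (adjusted p = 0.0314), and it did not pass without SS HA 1-2 (-3.11), SS HA 2-1 (-3.11), SS IgG 1-1 (-3.12) or LPS HA 1-2 (-2.77). Mzf1, a zinc finger transcription factor, had 9.09, 7.22, 13.04 and 10.3 CPM in LPS HA and 73.0, 49.7, 47.4 and 37.9 CPM in LPS IgG. LPS IgG again stood alone, above steady-state maxima of 18.7 CPM in HA and 23.3 CPM in IgG. Its interaction was -2.15 ± 0.42 (adjusted p = 0.00287). Ppp1cb, a catalytic subunit of protein phosphatase 1, had -2.15 ± 0.54 (adjusted p = 0.0188). Mzf1, Ppp1cb, Rbm25, Shank1 and Eif3e passed with every single library left out, though Shank1 lost its call in 1 other alternative. Rpl14-ps1 is a pseudogene of a ribosomal protein gene and Ccpg1os is annotated as an opposite-strand transcript, so their counts may include reads of the related gene. They did not pass when any 1 of 16 and 11 libraries was left out, nor did Tmem263 (11 libraries) and Ppig (10 libraries). Utrn, a relative of dystrophin, did not pass without LPS IgG 2-1 (-1.91), and Bclaf1 did not without LPS HA 1-2 (-1.93), LPS HA 2-2 (-1.89) or LPS IgG 2-1 (-2.01).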

How the data were processed

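Per the labels' protocols, RNA in anti-HA and IgG precipitates of hemibrains was sequenced by MARS-seq, which counts the 3′ ends of transcripts. The mouse build was mm9, per the submitters' processing notes, while the aligner, the counting program and its treatment of shared reads or strand are not given in the sources used here. The deposited table holds raw read counts per gene, per the file headers, and every gene it lists has a count of at least 6 in some library, so it leaves out weakly detected genes. Another 28 library columns, which match no sample here, were not used, nor were deposited normalised values. Libraries were grouped by the names in the file headers and carry their group's name and the pair of numbers in the column name. Of the gene symbols 11865 were current, 516 were synonyms and 22 did not match the RefSeq table.

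Counts were filtered by expression (minimum count 10, minimum total 15), scaled by the trimmed mean of M-values and fitted with 4 group means in edgeR 4.0.16 (R 4.3.3, robust quasi-likelihood test, 16 residual degrees of freedom, Benjamini-Hochberg adjustment over 9680 genes, threshold 0.05). Rows that name no gene were not present. The common biological coefficient of variation was 0.182. Standard errors are Wald errors of the log2 values. Alternatives were other scalings, no filter, DESeq2 1.42.0, limma-voom (limma 3.58.1), blocks, summed libraries, shallow libraries left out, and omission of single libraries. The fit was tested on simulated data.

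Named genes are the 15 per direction with the largest interaction among passing genes with a mean of at least 10 counts per library in the highest group and at least 2-fold, up to 4 per gene list by p, and all passing list members, of which not all are reported here. Values of Irf7, Socs3, C1qa, C1qb, C1qc and Nap1l1 had been seen when these genes were picked. The members, the lists and this rule were chosen with earlier results of these data known. No replicate pair differed by less than sampling noise.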

Additional observations from a re-analysis of the deposited data

Results flagged for a closer look

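The LPS response differed between HA and IgG precipitates, by the test of the difference itself, in 313 genes, which are described above. In a check for a library far from the others of its group, a library was far from the rest in 26 of 400 groups of values of the named genes (6.5%), and chance alone gives about 1 in 20. The libraries involved most often were LPS IgG 2-2 with 5 genes and steady-state IgG 2-1 with 4. No explanation was tested for any of these values.

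In LPS HA, library 1-1 was high for Rpl27a (269 CPM, next 162) and Tmem263 (11.6, next 2.93) and low for Lrrc42 (22.3, next 40.6). Library 1-2 was high for Eef1a1 (422, next 349). Library 2-2 was high for Igf2r (60.1, next 25.6) and low for Csf1r, the receptor for macrophage growth factor (65.9, next 92.0). In LPS IgG, library 1-1 was high for Rpl15 (42.9, next 28.2) and Tmem263 (17.2, next 6.41). Library 1-2, the shallowest, was low for Hif3a (2.76, next 14.1) and high for Cd163, a scavenger receptor of border macrophages (13.8, next 4.1). Library 2-2 was low for Shank1 (21.5, next 24.3), Shank3 (329, next 407), Stmn2 (91.1, next 129), Tuba4a (672, next 698) and Tubb4b (454, next 519).

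In steady-state HA, library 1-2 was high for Rpl27a (494 CPM, next 336) and Rps24 (933, next 634), and library 2-2 was high for Ctsd (601, next 536). In steady-state IgG, library 2-1 was high for Apoe (2108, next 1940.3), Rps24 (425, next 296), Tmem263 (8.99, next 4.76) and Tra2a (29.2, next 20.6). Library 1-2 was high for Entpd3 (28.9, next 19.7). Library 3-2 was high for Hsp90aa1 (71.2, next 35.6), Rpl7 (345, next 267) and Rps4x (96.3, next 49.4).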

How the results depend on the processing

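The interaction count of 313 was 346 with DESeq2's size factors in edgeR, 395 without scaling beyond library totals and 288 without a filter. Without scaling, 65.6% of the calls were higher, against 50.8% in the fit as reported. It was 543 with DESeq2's Wald test, 515 with limma-voom, 70 with counts summed over libraries that share their first column number, and 175 without the shallow library LPS IgG 1-2. The HA response, 1690, was 1126 with summed counts. The count of ribosomal protein genes lower, 16, was 6 with summed counts. No inflammatory gene passed in these settings. Leaving out each library in turn gave 127 to 890 interactions, 1044 to 2324 genes in the HA response, 7 to 20 ribosomal protein genes lower and 0 to 1 inflammatory genes, with 1 (Lbp) without steady-state IgG 3-1 and 1 (Stat2) without LPS HA 1-1. The cause of these differences was not tested.

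The column numbers of HA and IgG libraries were used as a replicate block in an alternative fit with 8 residual degrees of freedom. Of 10 such pairs, 8 had deviations that correlated above 0.1 (r from -0.13 to 0.42), and 4 correlated best with their own number. Whether a shared number means a shared brain was not given, and these values do not decide it. With the replicate block 705 interactions passed (25 ribosomal protein genes lower, 1 inflammatory gene, Ifi27), and with a replicate block of the first number, chosen after seeing the data, 742 (26 and 1). The LPS responses within 1 antibody were not refitted, as no number spans both treatments.

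Of the 79 passing genes chosen by the naming rule or after their values were seen, 25 passed in each of up to 29 alternatives that tested them. The other 54 lost their call in at least 1, and 0 of the 79 changed sign. Of 21 named genes that did not pass, 7 passed in at least 1 alternative. Values near 0 changed sign for Lcn2 (-0.013 with DESeq2, and -0.41 to 1.02 when single libraries were left out), Gfap (-0.35 to 0.023 when single libraries were left out) and Pf4 (-0.42 to 0.13 likewise). Low totals in LPS IgG and counts near 0 at steady state limit what could be seen for induced genes, and Lyve1, Cx3cr1 and most border macrophage markers were too low to test.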

Other observations

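Among other lists, the share that passed was 6.67% in mitochondrial respiration and 6.25% in both neuropeptides and astrocyte markers. It was 4% in immediate early and heat shock genes and 3.23% over all genes. Of 45 tested genes of mitochondrial respiration, Sdhc, a subunit of complex II, passed higher at 0.67 ± 0.19 (adjusted p = 0.043 by edgeR), and Cox8a of complex IV and Atp5j of the ATP synthase passed lower at -0.91 ± 0.22 (0.0161) and -1.18 ± 0.28 (0.0215). Cox8a had 678, 555, 583 and 349 CPM in LPS HA, 686, 588, 481 and 520.1 CPM in LPS IgG, 874, 1011 and 1266 CPM (lowest, median and highest) in steady-state HA and 422, 627 and 743 CPM in steady-state IgG. Its steady-state HA libraries lay above all others. Cox8a did not pass without LPS IgG 1-1 (-0.81), Atp5j did not without LPS HA 1-2 (-1.19), LPS HA 2-2 (-1.06) or LPS IgG 1-2 (-1.08), and Sdhc did not when any 1 of 12 libraries was left out.

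Oxt, the neuropeptide oxytocin, was the 1 of 16 tested neuropeptide genes that passed, lower at -0.90 ± 0.24 (adjusted p = 0.0283), and it did not pass when any 1 of 6 libraries was left out. Hsp90aa1, an inducible cytosolic chaperone, was the 1 of 25 immediate early and heat shock genes that passed, lower at -1.37 ± 0.36 (0.0278), and any 1 of 5 libraries ended that call. Ntsr2, a neurotensin receptor of astrocytes, was the 1 of 16 astrocyte markers that passed, higher at 0.82 ± 0.23 (0.038), with the call ended by any 1 of 7 libraries. None of 20 microglia markers, 14 oligodendrocyte markers, 12 MHC class I presentation genes and 5 MHC class II genes passed. With a replicate block of the library number, where 705 of all 9680 genes passed, 4 of the 12 MHC class I genes did. H2-K1 (0.97), H2-D1 (0.64) and Tap2 (1.26) were higher and B2m (-0.90) lower. The block of the first number, where 742 genes passed, gave the same 4. Mal, a myelin protein, passed with both blocks (-1.05 and -0.98), and Mag (0.58) and Sept4 (0.55) with the block of the first number. Sept4 also passed with DESeq2, limma-voom and both other scalings, and Csf1r (0.93) and Mal (-1.03) with limma-voom. Some passed with 1 library left out. Csf1r passed without LPS IgG 2-2 (0.97) or SS HA 2-2 (0.87), and Tap2, a peptide transporter, passed without LPS IgG 2-2 (1.63). Without LPS HA 1-1, the microglial gene Olfml3 (1.53) and the oligodendrocyte genes Mag (0.67), Mal (-1.37) and Sept4 (0.61) were among those that passed. Mag also passed without SS IgG 1-2 (0.70) or SS IgG 2-1 (0.70), and Sept4 without SS HA 2-2 (0.61) or SS IgG 2-1 (0.60), SS standing for steady state.

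Fcgrt, the border macrophage marker nearest to passing, did so in 13 alternatives. It had 35.5, 43.3, 23.9 and 38.1 CPM in LPS HA, 11.5, 24.9, 15.4 and 16.4 CPM in LPS IgG, 27.2, 40.7 and 58.2 CPM in steady-state HA and 38.2, 45.5 and 50.7 CPM in steady-state IgG. LPS IgG lay below steady-state IgG without overlap. Nap1l1, a histone chaperone in no list, passed at -1.34 ± 0.25 (adjusted p = 0.00257), also with every single library left out, and was chosen after its values were seen.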
